A study of Drosophila melanogaster with 12 samples.

Results

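The sites described here are isolated, narrow binding sites of Phaser (CG7372, symbol Phs in RefSeq) on the large autosomal arms of Drosophila melanogaster that carry no peak of a second factor, Saft (CG11247). Phaser was mapped by ChIP-seq in S2 cells, an embryo-derived line, of clone 8D, in which the endogenous Phaser gene carries a FLAG-AID tag on both alleles in cells that also express OsTir1. Saft was mapped in the same way in clones 9C and 4H, whose Saft gene carries the tag in the same OsTir1 background. AID is a degron that OsTir1 recognises when auxin is added, and no sample title names a depletion. Levels of the tagged proteins were not measured here. Each clone gave 2 ChIP libraries, biological replicates, and 2 inputs, 12 samples in all, and 6 peak lists are used here, 1 for each ChIP library. All Phaser values come from 1 clone, and cells without the tag gave no list for comparison here.

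A member is a peak of Phaser replicate 1 on 2L, 2R, 3L or 3R that meets 4 conditions. It overlaps a replicate 2 peak by 1 bp or more, it overlaps no peak of the 4 Saft lists, it has no summit of another such reproducible peak within 1000 bp, and it is under 600 bp wide. Of the 5299 peaks in replicate 1, 4635 lay on these arms, 3259 of those overlapped a replicate 2 peak, 3051 of those were free of Saft and 2715 of those were isolated. The 1736 members are 32.8% of the replicate 1 list and 37.5% of its peaks on these arms. The other 979 isolated sites, 600 bp or wider, are called isolated wide sites and serve as the comparison. The width, position and matching of the peaks chose the members, so replicate 1 widths are given as a description.

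Phaser and Saft are called transcription factors in the labels, and the series title concerns silencers, DNA elements that lower transcription of a gene. Factors of this kind bind short DNA sequences, and cross-linked, sheared chromatin around a bound sequence gives a heap of reads whose top, the summit, lies near it. The width of a called peak depends on the fragment lengths, on how far reads rise above background, and on whether several bound sequences lie side by side. The −log10 q given below is the peak caller's own significance at the summit. Sites are given in dm3 coordinates, and no gene or base sequence is assigned to them because no dm3 genome or annotation was used here.

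The members had a single matched peak in replicate 2 with few exceptions. A single replicate 2 peak overlapped 1723 of the 1736 members, and 13 members (0.749%, 95% Wilson interval 0.438 to 1.28) overlapped 2 of them. Among isolated wide sites 112 of 979 (11.4%, 9.60 to 13.6) overlapped more than 1 replicate 2 peak, and among all 3051 reproducible sites without Saft the share was 4.72%. A narrow peak has less room to overlap more than 1 peak, so the width rule itself lowers the share of members. The replicate 2 summit fell inside the replicate 1 peak at 1725 members (99.4%), against a share of 98.5% over the 3051 sites. Intervals here and below are over regions and cover counting error only. With 2 libraries of 1 clone, and members picked on these lists, no difference between narrow and wide sites was tested.

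The members were short in replicate 2 as well, the library whose widths did not choose them. Member peaks in replicate 2 had a median width of 291 bp, with quartiles of 222 and 375 bp, against a median of 639 bp and quartiles of 504 and 823 bp for isolated wide sites. In replicate 1 the median widths were 367 bp for members and 810 bp for isolated wide sites. The ratio of these medians, narrow over wide, was 0.455 in replicate 2 and 0.453 in replicate 1. Width moved together between the replicates, with a Spearman's rho of 0.64 at members and 0.66 at isolated wide sites. Widths in replicate 2 thus carry over part of the rule.

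Peaks under 600 bp in replicate 2 made up 1713 of 1736 members (98.7%, 98.0 to 99.1) and 429 of 979 isolated wide sites (43.8%, 40.7 to 46.9), with 77.8% over the 3051 sites. Replicate 2 peaks were shorter in general, since 81.4% of the 3051 sites, and 77.5% of the members, had a narrower peak there than in replicate 1. A limit of 474 bp in replicate 2 stands at the same percentile as 600 bp in replicate 1. Under it lay 1571 members (90.5%, 89.0 to 91.8), 191 isolated wide sites (19.5%, 17.1 to 22.1) and 64.1% of all 3051 sites. This limit was added after the widths were seen. With the replicates exchanged, so that replicate 2 chose the members, 1696 of 2068 (82.0%, 80.3 to 83.6) were under 600 bp in replicate 1, against 26 of 562 wide sites (4.63%) and 61.1% of all 3178 such sites. Of the 1736 members, 1684 (97.0%) were also chosen in that exchange.

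**Figure D1:**
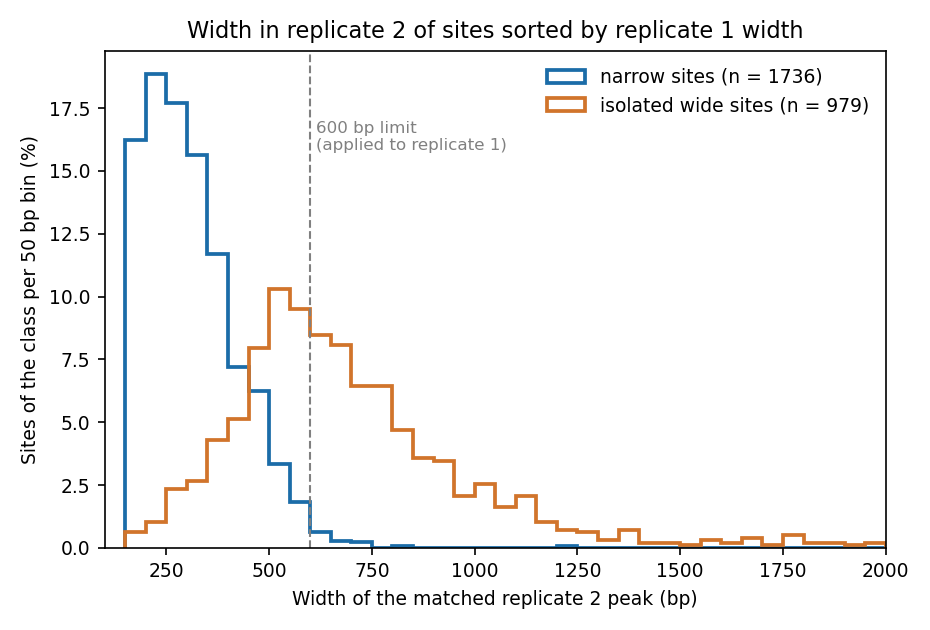
Width of the matched replicate 2 peak (bp, horizontal) for the narrow sites and the isolated wide sites, as the percent of sites of each class in each 50 bp bin (vertical). Narrow sites centre on a median of 291 bp and isolated wide sites on 639 bp, with 1 narrow and 6 wide sites beyond the end of the axis at 2000 bp.

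The exceptions were mostly members close to the width limit. The 23 members of 600 bp or more in replicate 2 had median widths of 526 bp in replicate 1 and 658 bp in replicate 2, and 18 of the 23 were 500 bp or wider in replicate 1. The widest in replicate 2 was chr3L:8052558-8052774, which was 217 bp wide in replicate 1 with a fold enrichment of 1.87. Its replicate 2 match was 2774 bp wide with a fold enrichment of 6.19. Its summits lay 1265 bp apart in the 2 replicates, and the next Phaser summit in replicate 1 was 1270 bp away, so the match is centred at that neighbour. The next 2 were chr2R:10294207-10294782, with 576 bp in replicate 1 and 1203 bp in replicate 2, and chr2R:17926566-17927163, with 598 and 824 bp.

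The width limit did not fall at a gap in the data. The 4 members just inside it, all 598 bp wide in replicate 1, were chr2L:5217762-5218359, chr2R:17926566-17927163, chr3L:8763794-8764391 and chr3L:20181680-20182277. Their fold enrichments were 4.91, 3.19, 9.04 and 5.04 in replicate 1 and 2.62, 5.34, 8.41 and 3.23 in replicate 2. The 4 isolated wide sites just outside it, all 600 bp wide, were chr2L:4866651-4867250, chr2L:9200495-9201094, chr3L:7688601-7689200 and chr3L:21986608-21987207, with 7.56, 7.31, 8.46 and 9.16 in replicate 1 and 5.01, 4.42, 7.08 and 7.16 in replicate 2. At the isolation limit, the closest member was chr3L:19359136-19359523, with the next summit at 1002 bp, and the widest-spaced clustered pair was chr2L:10809216-10810010 and chr2L:10810531-10810716, at 997 bp.

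The members were of middle strength within the Phaser lists, below the isolated wide sites. Fold enrichment is the authors' ratio of ChIP pileup to the peak caller's background at the summit. Members had a median of 4.79 in replicate 1 (quartiles 3.87 and 6.03) and 3.85 in replicate 2 (3.17 and 4.83). Isolated wide sites had medians of 7.87 (6.21 and 9.76) and 6.14 (4.76 and 7.71). Within each list the median of members was 0.609 and 0.626 of that of wide sites in replicates 1 and 2, a mean of 0.618 ± 0.0122 (SD, n = 2 libraries of 1 clone). The highest member had a fold of 13.4 in replicate 1, and no member passed 9.85 in replicate 2.

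Member values of −log10 q had medians of 10.4 and 7.39 in replicates 1 and 2, against 28.3 and 22.0 at isolated wide sites. By fold, the median member stood at the 55.0th percentile of the replicate 1 list and at the 42.0th of the replicate 2 list. Members in the upper part of both lists, split at their medians, numbered 595 (34.3%, 32.1 to 36.5), against 803 wide sites (82.0%, 79.5 to 84.3) and 50.2% of the 3051 sites. Members in the lower part of both lists numbered 631 (36.3%, 34.1 to 38.6), against 43 wide sites (4.39%) and 26% of all. Members in the upper part of replicate 1 and the lower part of replicate 2 numbered 418 (24.1%), against 113 wide sites (11.5%) and 19% of all, and the reverse held for 92 members (5.30%), 20 wide sites (2.04%) and 4.75% of all. The classes overlapped in fold, with 5th to 95th percentiles in replicate 2 of 2.5 to 6.61 for members and 3.36 to 10.3 for wide sites.

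The number of ChIP reads behind each summit could be worked back from the deposited fold and −log10 p, which together fix both the pileup and the background. Reads were recovered in both replicates for 1670 members and 971 isolated wide sites. Members had a median of 104 reads at the summit in replicate 1 (quartiles 85 and 131, highest 253) and 90 in replicate 2 (74 and 114, highest 276). Isolated wide sites had medians of 178 (144 and 219) and 154 (123 and 196.5). The highest summit held 283 reads in each Phaser list and in each Saft list 287 to 290 reads, so counts near that height may be capped, which was not tested, and differences among them are not read here. Summits of 250 reads or more made up 1 member in each replicate, against 113 and 61 wide sites in replicates 1 and 2. The replicate 2 member, which holds the highest count of 276, is chr3L:8052558-8052774, whose match there is centred at a neighbour. Shares over all sites without Saft were not computed for this height. Summits of 100 or more reads in replicate 1 were found at 957 members (57.3%, 54.9 to 59.7), against 921 wide sites (94.9%, 93.3 to 96.1) and 69.6% of all sites without Saft. In replicate 2 they were found at 618 members (37.0%, 34.7 to 39.3), against 859 wide sites (88.5%, 86.3 to 90.3) and 55.4% of all. Only 12 members (0.719%) had 200 or more reads in both replicates, against 231 wide sites (23.8%) and 9.36% of all.

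Backgrounds differed less than reads between the classes. The recovered background had a median of 5.10 in replicate 1 and 6.60 in replicate 2 at members, and of 5.36 and 7 at isolated wide sites. These are in units of the scaled pileup, in which 1 ChIP read counts 0.289 in replicate 1 and 0.325 in replicate 2.

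The order of the members by reads was much the same in the 2 replicates, and the order by fold was less so. Over the 1670 members, reads of the replicates had a Spearman rho of 0.93 (Pearson's r = 0.94), while fold over the 1736 members had a rho of 0.65 (r = 0.69). The recovered background had a rho of 0.47 (r = 0.57, n = 1670). Within each replicate, members with a higher background had a lower fold (rho of −0.42 in replicate 1 and −0.42 in replicate 2) though slightly more reads (rho of 0.33 and 0.34). Background is the divisor of fold, and a peak on a higher background needs more reads to be called. Both signs are thus in part set in advance and are not read as a property of the members. Of the 167 members with the most reads in replicate 1, 135 (80.8%) were among the 167 with the most in replicate 2. Of the 173 with the highest fold in replicate 1, 96 (55.5%) were among the top 173 in replicate 2. At isolated wide sites, some of them near the highest count, the rho was 0.97 for reads and 0.71 for fold. These are correlations across sites, which share the 2 libraries, the peak caller and any feature of the sequence, and they are given as a description.

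**Figure D2:**
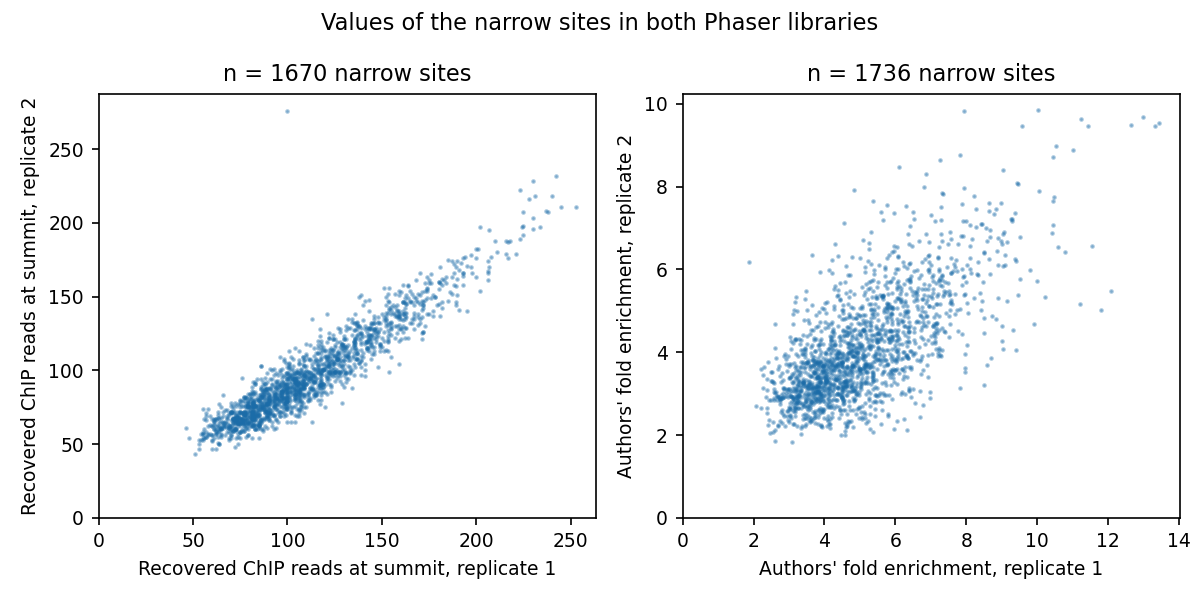
Each point is a narrow site, with its value in replicate 1 (horizontal) and replicate 2 (vertical), for recovered ChIP reads at the summit on the left and the authors' fold enrichment on the right. The points lie closer to a line for reads (Spearman's rho 0.93) than for fold (0.65), and the site at 100 and 276 reads is chr3L:8052558-8052774, whose replicate 2 match is centred on a neighbour.

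Peaks of the members were also shorter in replicate 2 than those of wide sites with like reads there. The classes were cut on replicate 1 width, which moved with replicate 2 width, so this gap is in part the rule carried over. Fold, background and replicate 1 reads were not matched. Isolated sites were put in bands by reads in replicate 2, and their widths in that replicate were compared within a band. From 80 to 99 reads, 497 members had a median width of 283 bp (quartiles 230 and 343), and 81 wide sites had 480 bp (338 and 608). From 120 to 139 reads, 187 members had a median of 384 bp (320 and 468.5) and 147 wide sites 584 bp (496 and 720). From 170 to 199 reads, 34 members had a median of 486.5 bp and 150 wide sites 694.5 bp.

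In the 6 bands from 60 to 199 reads the medians of members were thus 125 to 208 bp below those of wide sites. Under 60 reads there was 1 wide site, of 209 bp, beside 70 members with a median of 192.5 bp. At 200 reads or more, 13 members had a median of 451 bp and 233 wide sites one of 875 bp. The share of narrow sites among isolated ones was 98.6% under 60 reads, 86.0% from 80 to 99, 56.0% from 120 to 139, 18.5% from 170 to 199, and 5.28% (3.11 to 8.83) at 200 or more. Width and reads moved together within the members too (rho of 0.65 in replicate 2, n = 1696).

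**Figure D3:**
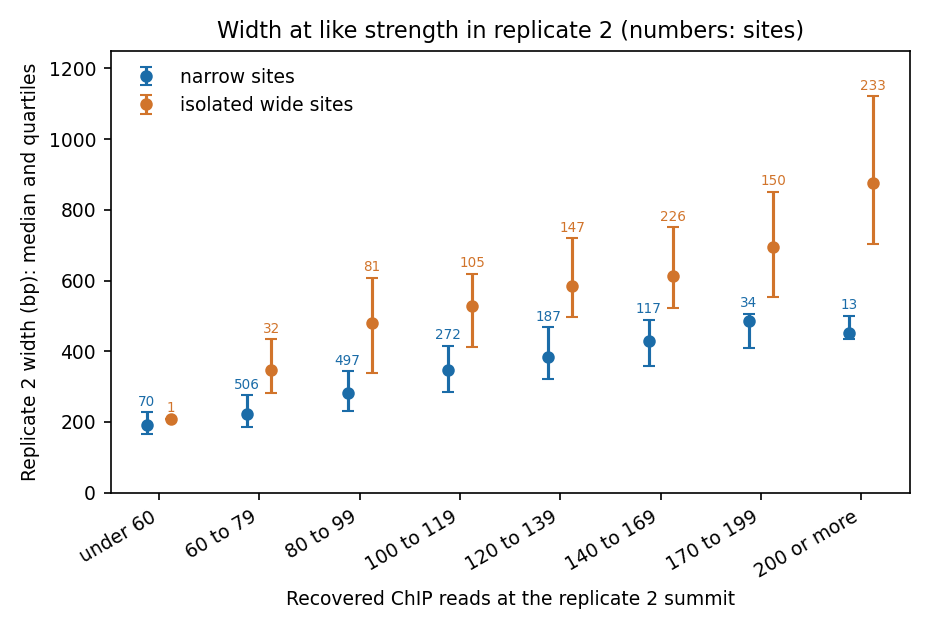
Median width of the replicate 2 peak (bp, vertical) with bars to the quartiles, in bands of recovered ChIP reads at the replicate 2 summit (horizontal), for narrow and isolated wide sites, with the number of sites above each bar. In the bands from 60 to 199 reads, narrow sites lie 125 to 208 bp below wide sites of like reads. The classes were cut on replicate 1 width, which moved with replicate 2 width.

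The members' own width range held a gradient in the same sense. Cut in 5 equal parts by replicate 1 width, the narrowest part (150 to 267 bp) had median replicate 2 values of 209 bp, 70 reads and a fold of 3.14. The middle part (331 to 407 bp) had 293 bp, 92 reads and a fold of 3.94. The widest part (494 to 598 bp) had 416 bp, 115 reads and a fold of 4.87. The 4 narrowest members were 150 bp wide in replicate 1, the least width of any list. They were chr2L:15168245-15168394, chr2R:8136343-8136492, chr3R:12220218-12220367 and chr3R:15754846-15754995, with replicate 2 widths of 156, 150, 192 and 183 bp and replicate 2 folds of 2.84, 3.02, 2.91 and 2.87.

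The summits of the members were placed alike in the 2 replicates. The median distance between the replicate summits was 18 bp (quartiles 8 and 33) at members and 13 bp (5 and 28) at isolated wide sites. Summits within 50 bp of each other were found at 1517 members (87.4%, 85.7 to 88.9), against 875 wide sites (89.4%, 87.3 to 91.2) and 86.5% of the 3051 sites. Summits within 10 bp were less frequent, at 568 members (32.7%, 30.6 to 35), 436 wide sites (44.5%, 41.4 to 47.7) and 36.3% of all. Summits over 100 bp apart were found at 33 members (1.90%, 1.36 to 2.66), 39 wide sites (3.98%, 2.93 to 5.4) and 4.06% of all. Narrow peaks leave less room for such distances, and the rule set the width. As a percentage of replicate 1 width, the median distance was 4.85% at members and 1.48% at wide sites.

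Summit distance moved with reads in both classes. In replicate 2 bands of 60 to 79, 100 to 119 and 140 to 169 reads the median distance was 23, 15 and 13 bp at members, and 39, 19 and 12 bp at wide sites. After chr3L:8052558-8052774, the members with the greatest distance were chr3R:7557391-7557983 (443 bp, with 2 replicate 2 peaks) and chr2R:13596582-13597119 (316 bp).

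Single member peaks were often off centre, to either side. The summit stood at a median of 49.8% of the peak width in replicate 1 and 49.7% in replicate 2 (quartiles 41.3% and 58.8%, and 41.4% and 57.8%). It lay a median of 30.5 bp from the centre of the peak in replicate 1 and 23.5 bp in replicate 2, against 84 and 61.5 bp at isolated wide sites. As percentages of width the wide sites were alike, with medians of 48.9% and 49.8%.

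The strongest members were found on all 4 arms. By mean rank of fold over both lists the first 4 were chr3L:15359371-15359863 (fold 13.4 and 9.54 in replicates 1 and 2, 242 and 232 reads), chr3R:6989512-6989991 (13.0 and 9.69, 193 and 176 reads), chr2L:3839461-3840052 (13.3 and 9.46, 223 and 189 reads) and chr2R:13810210-13810699 (12.7 and 9.48, 186 and 153 reads). Their replicate 2 widths were 451, 432, 492 and 329 bp, and their summits differed by 11, 4, 5 and 0 bp between replicates. The best of these ranked 52 of 5299 in replicate 1 and 151 of 3988 in replicate 2, so stronger sites of other classes stood above it.

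The next 4 by the same rank were chr3R:17006255-17006740 (11.2 and 9.64), chr3L:21185245-21185796 (11.4 and 9.47), chr3L:7161241-7161650 (11.0 and 8.88) and chr2L:1873552-1874059 (10.5 and 8.98), with summits 9, 3, 3 and 35 bp apart. On 2R the second-best member was chr2R:9246914-9247404 (9.45 and 8.05). Some of the highest folds stood on low backgrounds, with 3.32, the floor of the list, under chr2R:13810210-13810699 in replicate 1 and 4.35, again the floor, in replicate 2.

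Members were densest on 3R. The span of an arm was counted up to the end of its outermost peak in the 6 lists. By that span there were 611 members on 3R (22.1 per Mb), 414 on 3L (17.5 per Mb), 377 on 2L (16.9 per Mb) and 334 on 2R (16.0 per Mb). 3R held 35.2% of members (33.0 to 37.5), 35.9% of isolated wide sites (32.9 to 38.9) and 34.4% of all 3259 reproducible autosomal Phaser sites, so its share of members was close to that of Phaser sites in general. 2R held 19.2% of members (17.5 to 21.2), 23.4% of wide sites (20.8 to 26.1) and 660 of all 3259 reproducible autosomal Phaser sites. Among isolated sites, narrow ones made up 67.3% on 3L (63.5 to 70.9), 65.6% on 2L (61.6 to 69.3), 63.5% on 3R (60.4 to 66.5) and 59.3% on 2R (55.2 to 63.3). Between arms the members' medians were close, with replicate 2 widths of 281 to 299.5 bp, replicate 2 reads of 85 to 99, and replicate 2 folds of 3.72 to 3.92.

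**Figure D4:**
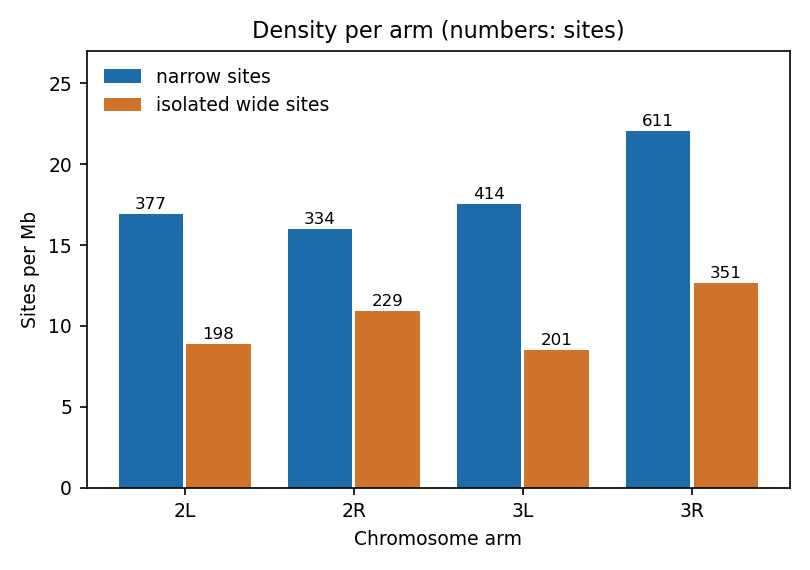
Sites per Mb (vertical) on each large autosomal arm for narrow sites and isolated wide sites, with the number of sites above each bar. Narrow sites run from 16.0 per Mb on 2R to 22.1 per Mb on 3R.

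Members were spread along the arms, and the windows nearest to the centromere, where pericentromeric heterochromatin begins, were among the emptiest. Over the 92 full 1 Mb windows, a window held a median of 18 members (quartiles 14 and 24). The fullest was 3R from 10 to 11 Mb, with 36 members, followed by 3R from 22 to 23 Mb with 33, and 2L from 18 to 19 Mb and 3R from 21 to 22 Mb with 31 each. The first Mb of 2R held no member, its second Mb 3, the window of 2L from 21 to 22 Mb 1, the first Mb of 3R 5 and the window of 3L from 22 to 23 Mb 6, all of them at the centromeric end. Also on the centromeric side of its arm, 2L from 19 to 20 Mb held 6. Towards the other end of its arm, 2R from 19 to 20 Mb held 7. The same windows held 0, 2, 0, 8, 5, 4 and 14 isolated wide sites, against a median of 10 per window. Counts of narrow and wide sites per window had a Spearman rho of 0.49 (Pearson's r = 0.46, n = 92 windows), a description of windows that share the same lists and mappable sequence.

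The nearest other reproducible Phaser summit lay a median of 7076 bp from a member (quartiles 3006.5 and 16030.5), against 6021 bp (2472.5 and 14380) from an isolated wide site. It lay 1000 to 2000 bp away for 251 members (14.5%, 12.9 to 16.2) and 185 wide sites (18.9%, 16.6 to 21.5), and over 50000 bp away for 74 members (4.26%) and 32 wide sites (3.27%). Members and wide sites together are the 2715 isolated sites, and shares over both together were not computed. The members farthest from another site were chr2R:1722280-1722695, with the next site 214715 bp away, chr3L:94322-94682, at 189418 bp, and chr3R:2750388-2750600, at 183133 bp. The nearest neighbour was itself a member for 1053 of the 1736 (60.7%, 58.3 to 62.9), an isolated wide site for 519 (29.9%, 27.8 to 32.1), a clustered site for 86 (4.95%) and a site with Saft for 78 (4.49%). Those classes made up 53.3%, 30.0%, 10.3% and 6.38% of all reproducible autosomal sites, and clustered sites have, by their rule, neighbours of their own.

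Isolation was defined by reproducible peaks, so some members had a companion peak without a match in the other replicate. The strength of these companions was not compared with that of the members. A replicate 1 peak without a replicate 2 match had its summit within 1000 bp of 112 members (6.45%, 5.39 to 7.71) and of 121 isolated wide sites (12.4%, 10.4 to 14.6). A replicate 2 peak without a replicate 1 match stood that close to 20 members (1.15%) and 16 wide sites (1.63%). Neither share was computed over all 3051 sites without Saft.

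The intervals of narrow and wide Phaser sites overlapped in how often Saft lay near them. The nearest Saft summit of any of the 4 lists was a median of 33911 bp from a member (quartiles 14051.8 and 71031.5) and 31554 bp (13922.5 and 63616.5) from an isolated wide site. A Saft summit lay within 10 kb of 336 members (19.4%, 17.6 to 21.3), 180 wide sites (18.4%, 16.1 to 20.9) and 19.2% of the 3051 sites. List by list, the shares of members were 12.7% and 14.5% for clone 9C and 11.5% and 10.9% for clone 4H, against 12.6% and 12.2%, and 11.3% and 10.2%, of wide sites. With Saft peaks of −log10 q of 10 or more only, both for the rule and for the distance, the share was 6.94% of the 1800 members then chosen. It was not computed for wide sites or for all sites, so it is not read as a trait of the members.

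A Saft summit lay within 1 kb of 12 members (0.691%, 0.396 to 1.2), 5 wide sites (0.511%) and 0.951% of all, although the rule kept only peaks that did not touch. The closest were chr3R:2062531-2062802 at 219 bp, chr2L:10572988-10573367 at 427 bp and chr3R:14272188-14272436 at 430 bp. Their Phaser folds were 4.23, 3.91 and 5.45 in replicate 1 and 4.50, 3.27 and 3.34 in replicate 2, and the Saft peaks had folds of 2.94, 2.95 and 2.76.

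**Figure D5:**
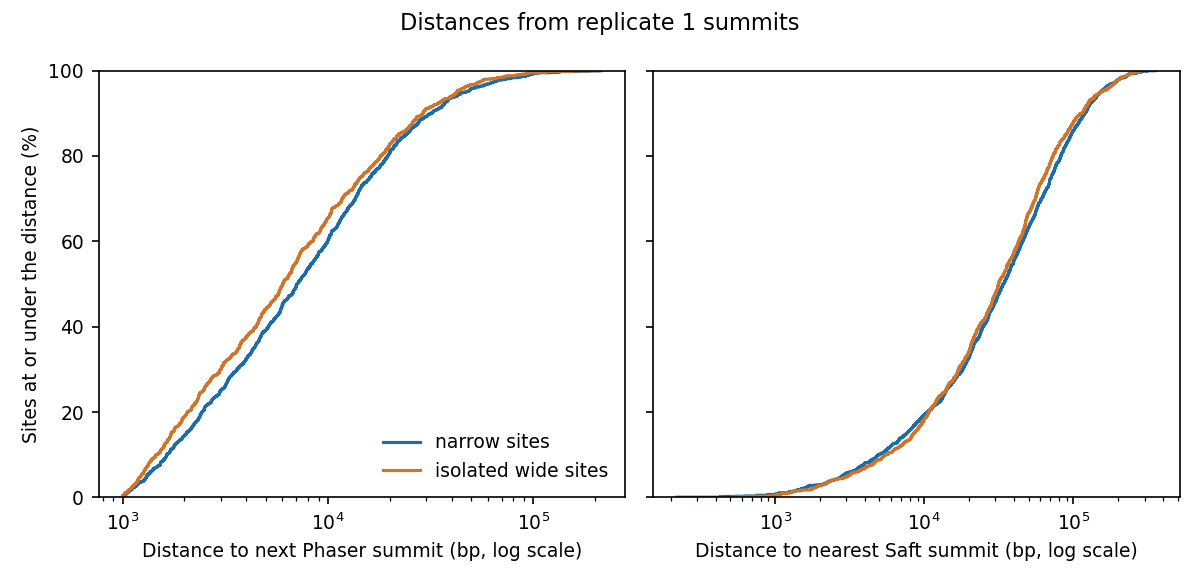
Percent of sites (vertical) whose distance to the next reproducible Phaser summit (left) or to the nearest Saft summit of any list (right) is at or under the value on the log axis in bp, for narrow and isolated wide sites. Median distances are 7076 and 6021 bp to Phaser and 33911 and 31554 bp to Saft, for narrow and wide sites in that order.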

How the data were processed

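FLAG ChIP was done on cells fixed in 1% formaldehyde for 10 min and sonicated to 200 to 1000 bp, per the labels' protocols. Build dm3 and the tools MACS2 2.1.2.1, Bowtie 1.2.2, Trim Galore 0.6.2 and bedtools 2.27.1 are recorded in the submitters' processing notes. The control and settings of the peak caller are not given in the sources used here. The deposited lists hold, for each peak, the authors' fold enrichment (a ratio at the summit), −log10 p and −log10 q, and a deposited score that was not used. Library depth is unknown. Phaser had 5299 and 3988 peaks in replicates 1 and 2 and Saft 1212 to 1515 per library, with a lowest −log10 q of 1.30 to 1.44.

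A site's replicate 2 values are those of the overlapping peak of highest fold. Reads and background were recovered by requiring (pileup + 1)/(background + 1) to equal the fold, a Poisson tail to equal p, and the pileup to be whole reads times 1 factor per list. With a tolerance of 0.03 reads, 100% of the Phaser peaks whose background was a single window count came out whole, against 4.53% and 5.15% with a factor 5% off. Peaks with more than 1 solution were left out (98.2% and 98.5% kept). On 1200 simulated peaks for each Phaser list, every recovered number of reads was right (97.6% and 98.4% recovered), and the rule classed all of 3295 simulated peaks rightly. The simulated fold and p came from the formulas that the recovery inverts, and recovered backgrounds were not scored. The simulation thus checks the code and not the fit to the deposited lists.

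The members and the lists of values were chosen with earlier results of these data known. Named sites follow a rule on rank of fold, width, summit distance and spacing. The clustered pair at the isolation limit, and sites tied with those at the width limits, were added to them later. Alternatives moved the width and isolation limits, the overlap, the q limits and the lists used. The gene table at hand is of Release 6, so it gave only the symbol of the tagged gene. Python 3.11.15, numpy 2.4.6, scipy 1.17.1, pandas 2.3.3 and matplotlib 3.10.9 were used.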

Additional observations from a re-analysis of the deposited data

How the results depend on the processing

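The 6 values recomputed were the number of members, the shares that were narrow in replicate 2, had summits within 50 bp, had Saft within 10 kb or lay on 3R, and the fold ratio of members to wide sites. Of 88 alternatives, 71 stayed within the counting interval, the SD between the libraries or 1.5 times the count, and the cause of the other changes was not tested except where the choice itself makes it. With Phaser peaks of −log10 q of 10 or more only, a choice that removes weak peaks, there were 589 members. Of these 96.1% were narrow in replicate 2 and 94.6% had close summits, and the fold ratio was 0.803. Why these shares and the ratio changed was not tested. The share narrow in replicate 2 was 97.2%, 99.2% and 98.0% with a width limit of 500 or 800 bp or isolation of 500 bp, 82.0% with the replicates exchanged, and 90.5% with the replicate 2 limit at an equal percentile, chosen after seeing the data. The fold ratio was 0.631 and 0.602 with limits of 500 and 800 bp, 0.591 with the replicates exchanged and 0.584 with reads in place of fold. With Saft peaks of −log10 q of 10 or more, 6.94% of the 1800 members then chosen had Saft within 10 kb. With 1 library left out, the number of members ranged from 1737 to 2391, the fold ratio from 0.529 to 0.618, the share near Saft from 16.3% (without replicate 2 of clone 9C) to 19.99%, the 3R share from 34.3% to 35.4%, the narrow share from 98.676% to 98.681% and the close-summit share from 87.2% to 87.4%. Without a Phaser library, the shares that need both gave no value. No paired analysis was possible because these results come from no test. Unknown depth limits any reading of peak width, which moved with reads.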
